A study of Sus scrofa with 6 samples.

Results

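The genes that carry glucose into the cell, break it down to pyruvate and turn pyruvate into lactate were measured in pig (Sus scrofa) embryonic stem cell lines, together with the kinases that hold pyruvate back from the mitochondria and a set of genes known to respond to low oxygen. The set was a list of 35 gene symbols, matched to the gene table by symbol or by the gene name in its description. Of these, 34 symbols were found and gave 35 genes of the 31908 in the table, because LDHB named 2 separate genes. The remaining symbol, SLC2A1, is not analysed here.

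The series is bulk RNA-seq of poly(A) RNA, with 2 libraries from each of 3 lines established in a serum-free medium and marked FIW in the labels. PA_1 and PA_3 are parthenogenetic, that is, derived from eggs activated without sperm, and IVF_1 comes from in vitro fertilisation. All 3 lines carry the label WT for genotype, and no agent or oxygen level separates the groups in the labels. The data hold 1 fertilised line, so every comparison is of lines and not of embryo origins, and the labels do not say that the libraries of a line came from separate cultures, so p-values may measure technical spread only.

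In glycolysis, hexokinase traps glucose in the cell, phosphofructokinase commits it to breakdown, and the enzymes of the lower pathway recover ATP and end in pyruvate. Lactate dehydrogenase reduces pyruvate to lactate, while pyruvate dehydrogenase passes it to the citric acid cycle unless a pyruvate dehydrogenase kinase has switched that complex off. The transcription factor HIF-1, whose alpha subunit is destroyed when oxygen is present, is known in mammals to raise transcription of many of these genes, and primed pluripotent stem cells are known for a high rate of glycolysis.

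The libraries held 15248306 to 28575817 counts. Counts from mitochondrial genes made up 7.97% and 9.65% of the PA_1 libraries, 12.2% of both PA_3 libraries and 7.67% and 8.29% of the IVF_1 libraries, so this share moved with line PA_3. With these genes left out of the fit, 13 members were called (edgeR adjusted p under 0.05) in PA_1 against IVF_1 and 21 in PA_3 against IVF_1, as with them, and 18 against 20 in PA_1 against PA_3, where PDK2 (-0.32, adjusted p = 0.051) and BNIP3 (-1.04, adjusted p = 0.056) were lost. Of 7 pluripotency markers, 5 were matched, and POU5F1 was at 609 to 881 CPM in the 6 libraries. POU5F1 was lower in PA_1 than in IVF_1, at a log2 fold change of -0.35 (adjusted p = 0.0015). CPM are counts relative to the scaled library total. The summed pluripotency markers were at 2877 and 2984 CPM in PA_1, with 3160 and 3251 in PA_3 and 4742 and 4667 in IVF_1. DNMT3B was at 3136 and 3134 CPM in IVF_1 and at 1525 to 1630 in the other lines. Among markers of other cells, 9 fibroblast markers summed to 90.8 to 105 CPM, with POSTN, DCN and LUM under 1 CPM in every library. However, 2 of the 6 tested were higher and 3 lower in PA_3 than in IVF_1, or 83.3% called, against 52.1% of all genes. The higher were THY1, at a log2 fold change of 0.87 (adjusted p = 5.7e-05), and FBN1, at 0.28 (adjusted p = 0.014). The lower were COL1A2, at -0.80 (adjusted p = 0.0022), PDGFRB, at -0.72 (adjusted p = 0.0055), and COL3A1, at -4.63 (adjusted p = 0.0018). COL3A1 was at 0 to 1.05 CPM. The 4 markers of hypoblast and endoderm summed to 20.7 and 26.8 CPM in PA_3, 10.9 and 11.8 CPM in IVF_1 and 4.54 and 4.20 CPM in PA_1. FOXA2 made up most of the PA_3 sum, at 18.8 and 24.7 CPM in PA_3 and 3.71 to 5.10 CPM elsewhere. Its log2 fold change was 2.18 (adjusted p = 1.5e-08) in PA_3 against IVF_1. GATA4 and GATA6 were lower in PA_3, at -2.47 (adjusted p = 1.2e-05) and -2.26 (adjusted p = 0.0068). SOX17 was under 2 CPM and GATA6 under 1 CPM in every library. In PA_1 against IVF_1, GATA4 was -6.39 (adjusted p = 2.2e-07), SOX17 -5.96 (adjusted p = 7.2e-06) and GATA6 -2.03 (adjusted p = 0.02). Of the 4, 75% were called in each of these comparisons, against 52.1% and 31.4% of all genes in PA_3 and PA_1. The 4 muscle markers summed to 19.9 and 20.1 CPM in PA_3, 14.1 and 10.8 CPM in PA_1 and 9.25 and 8.84 CPM in IVF_1. The muscle marker DES made up most of this and stood in the order PA_3, PA_1, IVF_1, like several glycolytic genes, at 1.33 (adjusted p = 1.3e-06) in PA_3 and 0.63 (adjusted p = 0.005) in PA_1 against IVF_1. The 5 trophectoderm markers summed to 606 and 599 CPM in PA_1, with 711 and 816 in PA_3 and 1431 and 1290 in IVF_1. Among them KRT8 and KRT18 reached 942 and 481 CPM in IVF_1, while CDX2 had 0 counts in every library. Against IVF_1, KRT8 was -1.05 (adjusted p = 2e-08) in PA_1 and -0.81 (adjusted p = 1.5e-07) in PA_3. KRT18 was -1.46 (adjusted p = 5.3e-10) and -0.89 (adjusted p = 6.8e-08). The 3 matched neuroectoderm markers summed to 211 and 198 CPM in PA_1, with 48.6 and 45.2 in PA_3 and 133 and 139 in IVF_1, and PAX6 was under 1 CPM in PA_3. The part of these marker differences in the results was not tested, and in bulk RNA a change in the share of a cell type cannot be told apart from a change in RNA per cell.

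All 35 members were counted well enough to be tested. On the per-length scale of TPM, the members took 1.21% to 1.49% of each library, and GAPDH alone took 0.49% to 0.71%. The members with the highest TPM were GAPDH, at line means of 5123 to 6376 TPM, LDHB on chromosome 5, at 1724 to 1958 TPM, ENO1, at 986 to 1689 TPM, and PKM, at 984 to 1067 TPM. The lowest was CA9, a carbonic anhydrase of the cell surface, at 2.18 to 2.65 TPM. TPM was used to order genes within a library and CPM to compare lines.

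Line PA_3 had the highest transcript levels of most genes from glucose uptake to lactate, and PA_1 lay between PA_3 and IVF_1 for several of them. A gene was called where the edgeR quasi-likelihood test gave a Benjamini-Hochberg adjusted p under 0.05 over 15197 genes. In PA_3 against IVF_1, 17 members were higher and 4 lower, which is 60% of the members against 52.1% of all genes tested, and the median log2 fold change of the members was 0.27 against 0.00411 over all genes. In PA_1 against IVF_1, 10 members were higher and 3 lower, 37.1% against 31.4% of all genes, with a median of 0.10 against 0.00345. PA_1 against PA_3 had 3 higher and 17 lower, 57.1% against 36.8% of all genes, with a median of -0.27 against 0.00175. The members' share of calls was therefore near that of all genes in both comparisons with IVF_1, while the direction leaned one way, since 25.9% of all genes were higher in PA_3 than in IVF_1 and 26.2% lower. The 3 comparisons share their libraries and are given side by side. At 2-fold or more, 6 members were called higher and 2 lower in PA_3 against IVF_1, where 13.1% of all genes passed, 1 higher and 0 lower in PA_1 against IVF_1 (6.62% of all genes), and 2 higher and 3 lower in PA_1 against PA_3 (8.32%). The libraries of the lines did not overlap for 29 members in PA_3 against IVF_1, 22 in PA_1 against IVF_1 and 24 in PA_1 against PA_3, against 78.9%, 64.8% and 66.7% of all genes, and 82.9%, 62.9% and 68.6% of the members.

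These counts depended on single libraries. Of the calls, 16 of 21 in PA_3 against IVF_1, 6 of 13 in PA_1 against IVF_1 and 12 of 20 in PA_1 against PA_3 held without each library in turn. In PA_1 against IVF_1 the count became 16 with 7 higher and 9 lower without PA_1 replicate 1, 19 with 16 higher and 3 lower without PA_1 replicate 2, and 8 without either IVF_1 library. In PA_1 against PA_3 it was 13, with 3 higher and 10 lower, without PA_3 replicate 2. With library totals in place of scaling factors, PA_1 against PA_3 gave 4 members higher and 14 lower, and 3477 genes higher and 2373 lower of all genes, against 2712 and 2883 with scaling.

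**Figure D1:**
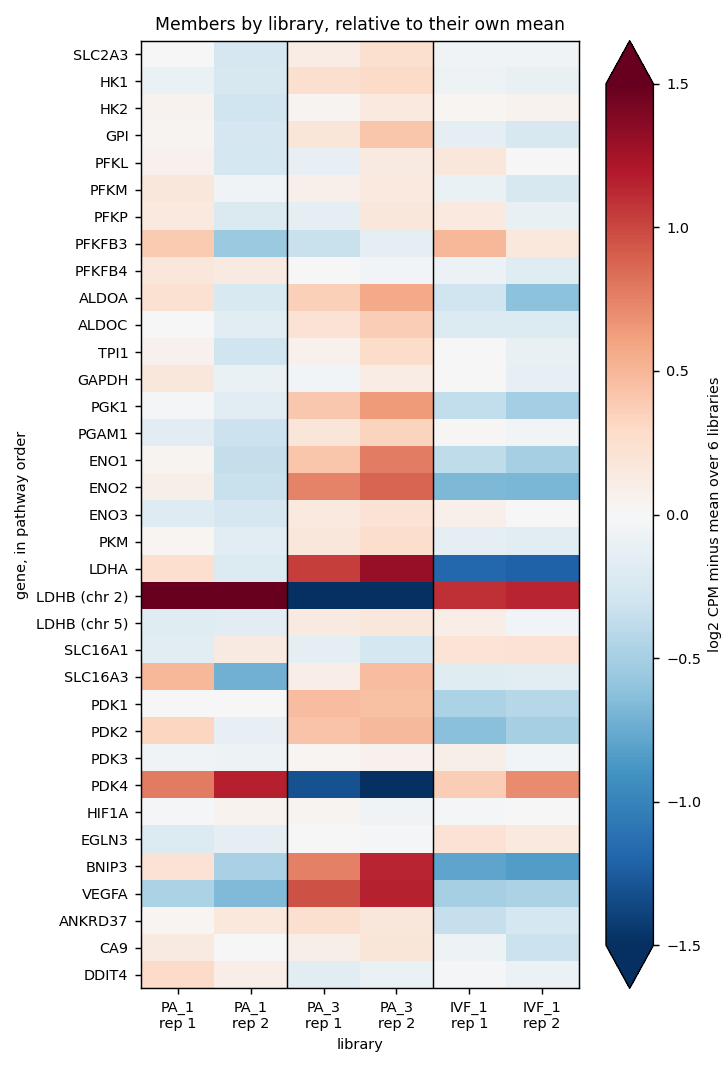
Heat map of the 35 members (vertical axis, in pathway order) in the 6 libraries (horizontal axis), coloured by log2 CPM minus the gene's mean over the libraries, with the scale ending at ±1.5. Both PA_3 libraries are above the gene's mean for LDHA, ENO2, PGK1 and VEGFA and below it for PDK4 and for LDHB on chromosome 2.

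Transcripts of the transporter SLC2A3 and of the hexokinase HK1 were highest in PA_3, and uptake itself was not measured. SLC2A3, a high-affinity glucose transporter, was at 698 and 584 CPM in PA_1, with 753 and 823 in PA_3 and 675 and 674 in IVF_1. Its log2 fold change was 0.23 (SE 0.08, adjusted p = 0.022) in PA_3 against IVF_1, -0.30 (SE 0.08, adjusted p = 0.0064) in PA_1 against PA_3 and -0.07 (adjusted p = 0.52) in PA_1 against IVF_1. The SLC2A3 call in PA_3 against IVF_1 was lost without PA_3 replicate 2 (0.16, adjusted p = 0.2), without IVF_1 replicate 1 (0.23, adjusted p = 0.11), without IVF_1 replicate 2 (0.22, adjusted p = 0.12) and with library totals in place of scaling factors. The call in PA_1 against PA_3 was lost without PA_3 replicate 2 (-0.23, adjusted p = 0.095), and without PA_1 replicate 2 it was -0.16, adjusted p = 0.05. Without PA_1 replicate 1, SLC2A3 was lower in PA_1 than in IVF_1 (-0.21, adjusted p = 0.017).

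HK1 was the main hexokinase, with 94.8% ± 0.498 (SD, n = 2) of the hexokinase TPM in PA_1, 95.6% ± 0.118 in PA_3 and 94.6% ± 0.14 in IVF_1. Its levels were 350.2 and 318 CPM in PA_1, with 443 and 459 in PA_3 and 358 and 348 in IVF_1. Both PA_3 libraries lay above the other 4, and HK1 was 1.28-fold higher in PA_3 than in IVF_1, a log2 fold change of 0.35 (SE 0.07, adjusted p = 0.00028), and -0.43 (SE 0.07, adjusted p = 7e-05) in PA_1 against PA_3. HK2, the hexokinase of insulin-sensitive tissues and many tumours, ranged from 24.7 to 33.7 CPM and was not called in any comparison, although without PA_1 replicate 1 it was lower in PA_1 than in IVF_1 (-0.34, adjusted p = 0.011) and than in PA_3 (-0.40, adjusted p = 0.0018).

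GPI, which turns glucose 6-phosphate into fructose 6-phosphate, was at 256 and 209 CPM in PA_1, with 282 and 330.3 in PA_3 and 225 and 210.2 in IVF_1. It rose in PA_3 against IVF_1 by 0.49 (SE 0.09, adjusted p = 0.00066) and was lower in PA_1 than in PA_3, at -0.39 (SE 0.09, adjusted p = 0.0047). The second call was lost without PA_3 replicate 2 (-0.28, adjusted p = 0.067), and without PA_1 replicate 2 the difference was -0.25, adjusted p = 0.02. Without PA_1 replicate 2, GPI was also higher in PA_1 than in IVF_1 (0.25, adjusted p = 0.021). GPI shares 96871 bases of its span, on the same strand, with KIAA0355, which had 320 to 669 counts.

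Of the phosphofructokinase genes, PFKM was the one called between lines. PFKL, the liver-type subunit, held the largest share of phosphofructokinase TPM, with 47.7% ± 1.05 (SD, n = 2) in PA_1, 48.7% ± 1.90 in PA_3 and 53.9% ± 0.0198 in IVF_1. The 2 IVF_1 libraries, at 53.9% each, lay above the other 4. For a single value, an exact permutation test of this design cannot give a p under 0.33. In CPM, PFKL was at 184 and 146 CPM in PA_1, with 161 and 192 in PA_3 and 198 and 176 in IVF_1, with overlapping ranges and no call, although without PA_1 replicate 1 it was lower in PA_1 than in IVF_1 (-0.36, adjusted p = 0.027). PFKM, the muscle-type subunit, was at 167 and 144 CPM in PA_1, with 156 and 165 in PA_3 and 139 and 126 in IVF_1, lowest in IVF_1. It was called higher in PA_1 against IVF_1, at 0.23 (SE 0.08, adjusted p = 0.037), and in PA_3 against IVF_1, at 0.27 (SE 0.08, adjusted p = 0.0083). Neither PFKM call held throughout. The PA_1 call was lost without PA_1 replicate 1 (0.11, adjusted p = 0.23), IVF_1 replicate 1 (0.30, adjusted p = 0.077), IVF_1 replicate 2 (0.16, adjusted p = 0.34) and PA_3 replicate 1 (0.23, adjusted p = 0.051). The PA_3 call was lost without PA_3 replicate 2 (0.24, adjusted p = 0.071) and without IVF_1 replicate 2 (0.20, adjusted p = 0.15). PFKP, the platelet-type subunit, was not called, with line means of 31.4 to 32.5 CPM, and its span overlaps PITRM1 on the opposite strand.

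The bifunctional enzymes PFKFB3 and PFKFB4 make and degrade the fructose bisphosphate that activates phosphofructokinase. PFKFB4 held most of their TPM, 77.8% ± 7.001 (SD, n = 2) in PA_1, 78.2% ± 1.83 in PA_3 and 68.8% ± 2.47 in IVF_1. PFKFB4 levels were 18.7 and 18.2 CPM in PA_1, with 16.6 and 16.1 in PA_3 and 15.7 and 14.7 in IVF_1, with no call, and its largest difference was 0.28 (adjusted p = 0.062) in PA_1 against IVF_1. That difference passed the threshold without PA_1 replicate 2 (0.31, adjusted p = 0.033) and with library totals in place of scaling factors. PFKFB3 was at 10.9 and 5.67 CPM in PA_1, with 6.59 and 7.50 in PA_3 and 11.7 and 9.29 in IVF_1, and the PA_1 libraries spanned nearly the whole range. It was not called, at -0.58 (adjusted p = 0.1) in PA_3 against IVF_1. The PFKFB3 difference between PA_3 and IVF_1 did pass without PA_1 replicate 1 (-0.58, adjusted p = 0.00039) or PA_1 replicate 2 (-0.58, adjusted p = 0.00069). PA_1 was below IVF_1 without PA_1 replicate 1 (-0.89, adjusted p = 0.00022) and above PA_3 without PA_1 replicate 2 (0.64, adjusted p = 0.0011).

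Aldolase splits the product of phosphofructokinase into triose phosphates. ALDOA, the aldolase of muscle and most tissues, was at 43.3 and 31.5 CPM in PA_1, with 47.2 and 54.6 in PA_3 and 29.98 and 24.2 in IVF_1, with both PA_3 libraries highest and both IVF_1 libraries lowest. Its log2 fold change was 0.91 (SE 0.15, adjusted p = 0.00046) in PA_3 against IVF_1, 0.47 (SE 0.15, adjusted p = 0.037) in PA_1 against IVF_1 and -0.43 (SE 0.14, adjusted p = 0.034) in PA_1 against PA_3. The ALDOA model lies at 18234787 to 18260256 on chromosome 3 of Sscrofa11.1, and an unnamed model on the same strand covers 25377 bases of it and held 9.78 to 15.3 times the ALDOA counts. With both models summed, a choice made after seeing the data, PA_3 stayed above IVF_1 (0.79, adjusted p = 0.001), PA_1 was further below PA_3 (-0.78, adjusted p = 0.0018), and the call between PA_1 and IVF_1 was lost (0.01, adjusted p = 0.95).

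The ALDOA call in PA_1 against IVF_1 was also lost without PA_1 replicate 1 (0.21, adjusted p = 0.18) or IVF_1 replicate 2 (0.33, adjusted p = 0.22). In PA_1 against PA_3, ALDOA was -0.70, adjusted p = 1e-05 without PA_1 replicate 1, and the call was lost without PA_1 replicate 2 (-0.22, adjusted p = 0.092), without PA_3 replicate 2 (-0.33, adjusted p = 0.21) and with library totals in place of scaling factors. ALDOC, the aldolase best known from brain, was at 103 and 92.6 CPM in PA_1, with 120.01 and 134 in PA_3 and 89.7 and 89.7 in IVF_1. It was higher in PA_3 than in IVF_1, at 0.50 (SE 0.08, adjusted p = 5.6e-05), and lower in PA_1 than in PA_3, at -0.37 (SE 0.08, adjusted p = 0.0012), and both calls held without each library in turn. On the same strand, ALDOC shares 18907 bases of its span with PIGS, which had 536 to 1030 counts. It also shares 20734 bases with SPAG5, which had 134 to 232 counts. PA_1 was called above IVF_1 for ALDOC without PA_1 replicate 2 (0.22, adjusted p = 0.021). TPI1, which interconverts the triose phosphates, was at 295 and 230.2 CPM in PA_1, with 294 and 341 in PA_3 and 284 and 261 in IVF_1 and was not called, at 0.22 (adjusted p = 0.12) in PA_3 against IVF_1 and -0.27 (adjusted p = 0.079) in PA_1 against PA_3. Without PA_1 replicate 1 both TPI1 differences passed, at 0.22, adjusted p = 0.0034 and -0.46, adjusted p = 2e-05, and PA_1 was below IVF_1 (-0.25, adjusted p = 0.016). The first passed without PA_1 replicate 2 as well (0.22, adjusted p = 0.0063), and the second without PA_3 replicate 1 (-0.38, adjusted p = 0.038).

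In the lower pathway, from GAPDH to pyruvate kinase, 5 of 7 genes were higher in PA_3 than in IVF_1 and none lower, with a median log2 fold change of 0.37, and 6 of 7 were lower in PA_1 than in PA_3. PA_1 against IVF_1 gave 2 higher and 1 lower. The shares called were 71.4%, 85.7% and 42.9% in the order just given, against 52.1%, 36.8% and 31.4% of all genes. GAPDH, which oxidises the triose and is the most abundant member, was the gene of this stretch with no call in any comparison. Its levels were 4587 and 3806 CPM in PA_1, with 3984 and 4414 in PA_3 and 4067 and 3755 in IVF_1, and the ranges overlapped. The GAPDH log2 fold change was 0.10 (adjusted p = 0.33) in PA_3 against IVF_1 and 0.10 (adjusted p = 0.39) in PA_1 against IVF_1, which passed without PA_1 replicate 2 (0.24, adjusted p = 0.0098).

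PGK1, an X-linked enzyme that recovers ATP, was at 326 and 296 CPM in PA_1, with 437 and 514 in PA_3 and 254 and 231 in IVF_1. The lines did not overlap and stood in the order PA_3, PA_1, IVF_1. PGK1 rose by 0.97 (SE 0.08, adjusted p = 7.6e-08) in PA_3 and by 0.36 (SE 0.08, adjusted p = 0.0032) in PA_1 against IVF_1, and was at -0.61 (SE 0.08, adjusted p = 1.9e-05) in PA_1 against PA_3. Without IVF_1 replicate 2 the PA_1 call was lost (0.29, adjusted p = 0.077).

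PGAM1, the phosphoglycerate mutase, was at 552 and 497 CPM in PA_1, with 703 and 780.01 in PA_3 and 626 and 599.8 in IVF_1, so PA_1 was lowest. It was 0.27 (SE 0.07, adjusted p = 0.004) in PA_3 against IVF_1, -0.22 (SE 0.07, adjusted p = 0.024) in PA_1 against IVF_1 and -0.50 (SE 0.07, adjusted p = 3.8e-05) in PA_1 against PA_3. The last of these calls held without each library. For PGAM1, the call between PA_3 and IVF_1 was lost without PA_3 replicate 2 (0.20, adjusted p = 0.086) or IVF_1 replicate 2 (0.24, adjusted p = 0.067). The call between PA_1 and IVF_1 was lost without PA_1 replicate 2 (-0.14, adjusted p = 0.11), IVF_1 replicate 1 (-0.19, adjusted p = 0.2) or IVF_1 replicate 2 (-0.26, adjusted p = 0.078), and with library totals in place of scaling factors.

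Enolase removes water to give phosphoenolpyruvate. ENO1, the enolase of most tissues, held 96.6% ± 0.091 (SD, n = 2) of the enolase TPM in PA_1, 96.4% ± 0.402 in PA_3 and 96.7% ± 0.127 in IVF_1. Its levels were 1525 and 1158 CPM in PA_1, with 1972 and 2531 in PA_3 and 1141 and 1052 in IVF_1, again with PA_3 above PA_1 and PA_1 above IVF_1. ENO1 was 2.05-fold higher in PA_3 than in IVF_1, a log2 fold change of 1.04 (SE 0.17, adjusted p = 0.003). It was at -0.75 (SE 0.17, adjusted p = 0.016) in PA_1 against PA_3, which was lost without PA_1 replicate 2 (-0.55, adjusted p = 0.095), and at 0.29 (adjusted p = 0.25) in PA_1 against IVF_1.

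ENO2, the neuronal enolase, showed the largest rise of the glycolytic enzymes in PA_3. It was at 75.5 and 56.5 CPM in PA_1, with 119 and 131 in PA_3 and 44.5 and 44.2 in IVF_1, with no overlap between lines. The log2 fold change was 1.496 (SE 0.11, adjusted p = 1.1e-07) in PA_3 against IVF_1, 0.58 (SE 0.11, adjusted p = 0.0015) in PA_1 against IVF_1 and -0.91 (SE 0.11, adjusted p = 1.5e-05) in PA_1 against PA_3, and all 3 calls held without each library in turn. Without PA_1 replicate 1 the ENO2 value in PA_1 against IVF_1 was smaller (0.35, adjusted p = 0.0015). ENO2, TPI1 and GAPDH lie within 335 kb of chromosome 5 (63799339 to 64133991, Sscrofa11.1), and TPI1 and GAPDH had no call. ENO3, the muscle enolase, was at 9.65 to 13.4 CPM and was called in PA_1 against PA_3, at -0.40 (SE 0.12, adjusted p = 0.013), but not without PA_3 replicate 2 (-0.37, adjusted p = 0.11) or with DESeq2. It overlaps PFN1 on the opposite strand, which had 9228 to 14424 counts, and the strand setting of the counting is not given in the sources used here.

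PKM, the pyruvate kinase that ends the pathway, was at 2879 and 2542 CPM in PA_1, with 3176 and 3387 in PA_3 and 2578 and 2507 in IVF_1. It was 0.37 (SE 0.07, adjusted p = 0.00046) in PA_3 against IVF_1, a call that held without each library. In PA_1 against PA_3 it was -0.28 (SE 0.07, adjusted p = 0.0065), which was lost without PA_3 replicate 2 (-0.23, adjusted p = 0.096) and was -0.18, adjusted p = 0.04 without PA_1 replicate 2. PKM passed in PA_1 against IVF_1 without PA_1 replicate 2 (0.19, adjusted p = 0.025). Counting all 16 glycolytic enzymes from hexokinase to PKM, 10 were higher and 0 lower in PA_3 than in IVF_1, none higher and 10 lower in PA_1 against PA_3, and 4 higher and 1 lower in PA_1 than in IVF_1. The medians were 0.31, -0.38 and 0.10. The enzymes called were 62.5%, 62.5% and 31.2% of the 16, against 52.1%, 36.8% and 31.4% of all genes, so in PA_1 against IVF_1 their share of calls was that of all genes.

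**Figure D2:**
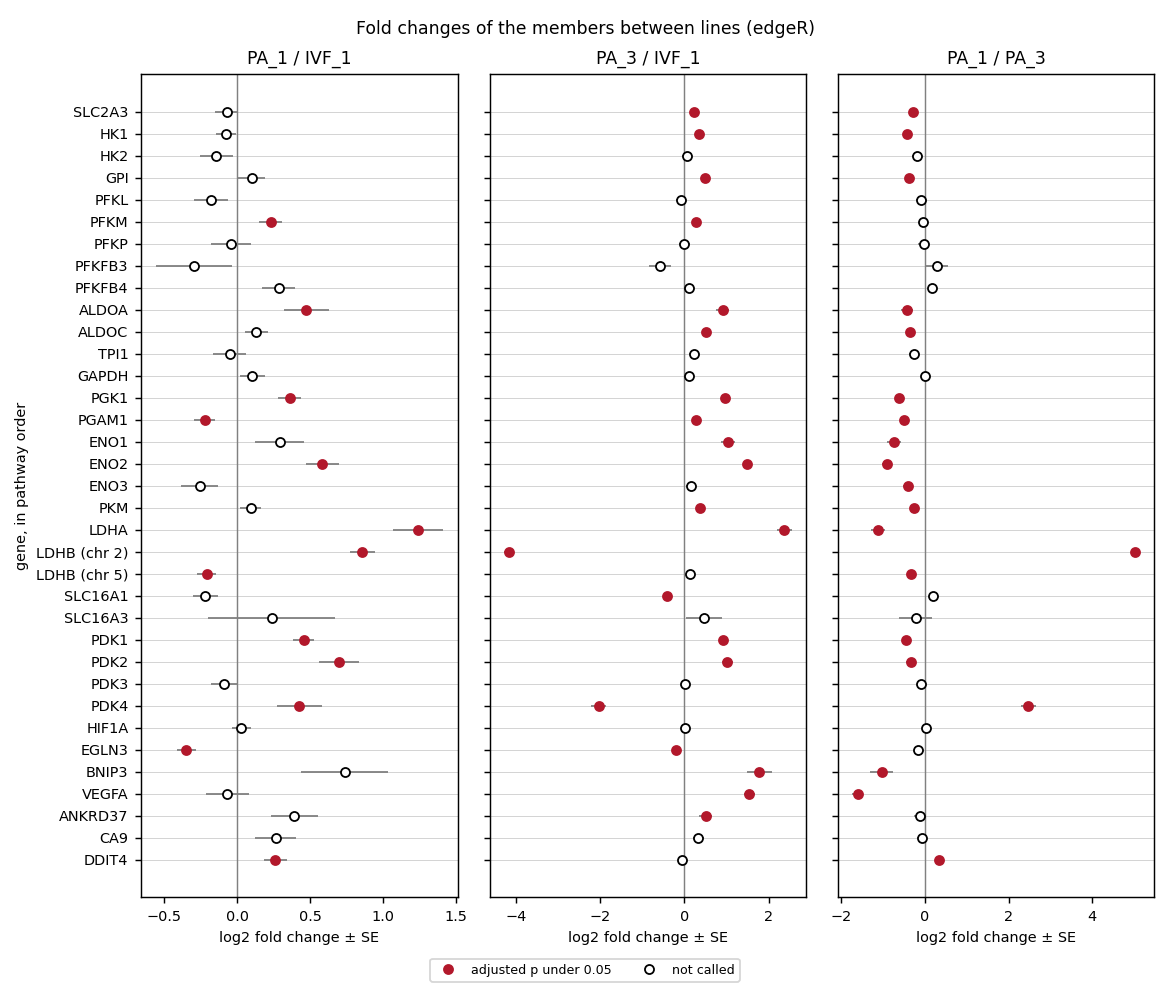
Log2 fold change with its standard error (horizontal axis) of each member (vertical axis, in pathway order) in the 3 comparisons, filled where the adjusted p was under 0.05. From HK1 to PKM the filled points of PA_3 against IVF_1 lie to the right of 0 and those of PA_1 against PA_3 to the left, while LDHB on chromosome 2 stands far from the rest at -4.17 and 5.03.

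Among the members, LDHA had the largest fold change in PA_1 against IVF_1 and, apart from an LDHB gene on chromosome 2 whose reads are uncertain, in PA_3 against IVF_1, while in PA_1 against PA_3 PDK4 and VEGFA differed by more. LDHA, whose subunit favours the making of lactate, was at 222 and 161 CPM in PA_1, with 380.2 and 461 in PA_3 and 82.3 and 80.2 in IVF_1. The lines did not overlap, and PA_3 was highest and IVF_1 lowest. LDHA was 5.17-fold higher in PA_3 than in IVF_1, a log2 fold change of 2.37 (SE 0.18, adjusted p = 7.6e-05). It was 2.36-fold higher in PA_1 than in IVF_1, at 1.24 (SE 0.17, adjusted p = 0.0029), and -1.13 (SE 0.16, adjusted p = 0.0027) in PA_1 against PA_3. All 3 LDHA calls held under each of the alternatives listed with the processing. The gene lies on the minus strand of chromosome 2, from 40812453 to 40826715 in Sscrofa11.1.

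LDHB, whose subunit favours the return of lactate to pyruvate, stood on 2 genes of the table. The one on chromosome 5 (51810943 to 51831217, Sscrofa11.1) carried most of the counts, and was at 1114 and 1119 CPM in PA_1, with 1386 and 1418 in PA_3 and 1349.9 and 1229.7 in IVF_1. It was lower in PA_1 than in PA_3, at -0.33 (SE 0.07, adjusted p = 0.00085), and than in IVF_1, at -0.21 (SE 0.07, adjusted p = 0.023), and was not called in PA_3 against IVF_1, at 0.12 (adjusted p = 0.13). The call against IVF_1 was lost without IVF_1 replicate 1 (-0.14, adjusted p = 0.31) and when only the libraries of these lines were fitted. The other LDHB gene is a single-transcript model of chromosome 2 (12988708 to 12990067, minus strand), and was at 199 and 211 CPM in PA_1, with 5.12 and 7.31 in PA_3 and 111 and 115 in IVF_1. Both PA_3 libraries were far below the other 4 and both PA_1 libraries were highest. This LDHB gene was 32.7-fold higher in PA_1 than in PA_3, a log2 fold change of 5.03 (SE 0.11, adjusted p = 2.6e-15), -4.17 (SE 0.11, adjusted p = 2e-14) in PA_3 against IVF_1 and 0.86 (SE 0.09, adjusted p = 1.4e-06) in PA_1 against IVF_1.

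How any reads that match both LDHB genes were divided is not given in the sources used here, so the split between the 2 genes is uncertain. Their sequences were not compared. The chromosome 2 counts came to 17.9% and 18.8% of the chromosome 5 counts in PA_1, but 0.370% and 0.516% in PA_3 and 8.22% and 9.35% in IVF_1. With both LDHB genes summed, a choice made after seeing the data, no comparison was called, at -0.09, adjusted p = 0.33 in PA_1 against IVF_1, 0.01, adjusted p = 0.95 in PA_3 against IVF_1 and -0.09, adjusted p = 0.28 in PA_1 against PA_3. On the TPM scale, LDHB on chromosome 5 stood above LDHA by 6.98 and 9.72 times in PA_1, by 5.04 and 4.28 times in PA_3 and 22.8 and 21.5 times in IVF_1. LDHA made up 9.41% ± 2.02 (SD, n = 2) of the lactate dehydrogenase TPM in PA_1, 17.7% ± 1.68 in PA_3 and 3.995% ± 0.131 in IVF_1, with no overlap between lines. LDHB on chromosome 5 was above LDHA in every library on this scale, and by the least in PA_3.

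**Figure D3:**
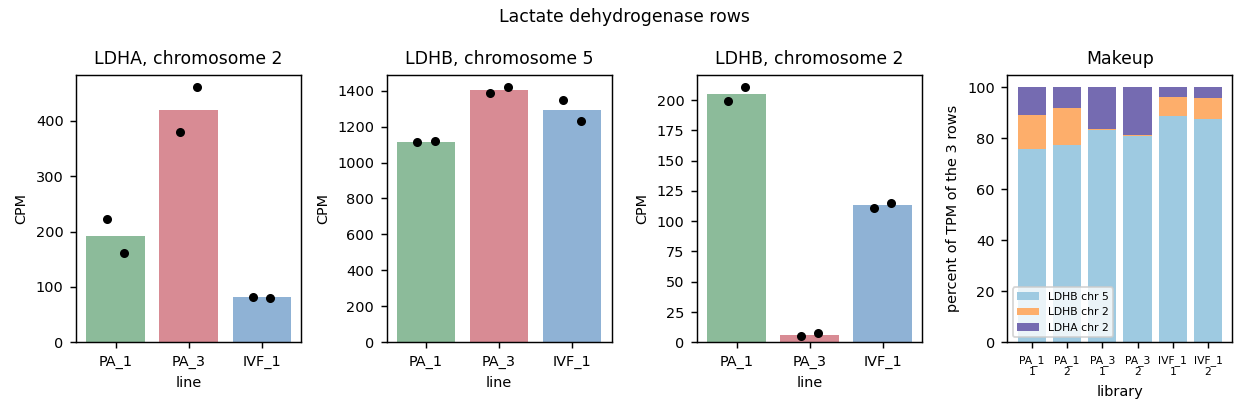
The first 3 panels show CPM of LDHA and of the LDHB genes on chromosomes 5 and 2 by line, with bars for the mean of 2 libraries and points for each library. The last panel shows their shares of TPM by library, where LDHA holds 3.90% and 4.09% in IVF_1 against 16.5% and 18.9% in PA_3.

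Monocarboxylate transporters carry lactate across the cell membrane. SLC16A1, the widely expressed transporter, held 92.6% ± 4.55 (SD, n = 2) of the TPM of the pair in PA_1, 89.6% ± 1.84 in PA_3 and 94.4% ± 0.313 in IVF_1. Its levels were 287 and 354 CPM in PA_1, with 293 and 267 in PA_3 and 371 and 374 in IVF_1, lowest in PA_3. SLC16A1 was lower in PA_3 than in IVF_1, at -0.41 (SE 0.08, adjusted p = 0.00072), against the direction of LDHA, and the call held without each library. In PA_1 it was -0.22 (adjusted p = 0.059) against IVF_1 and 0.19 (adjusted p = 0.08) against PA_3. SLC16A1 passed in PA_1 against IVF_1 without PA_1 replicate 2 (-0.36, adjusted p = 7e-05) and with the replicate block (-0.22, adjusted p = 0.037), and in PA_1 against PA_3 without PA_1 replicate 1 (0.34, adjusted p = 5.5e-05) and with library totals in place of scaling factors (0.25, adjusted p = 0.019).

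SLC16A3, the transporter known for lactate export from glycolytic cells, was at 15.7 and 6.76 CPM in PA_1, with 11.9 and 15.3 in PA_3 and 9.79 and 9.95 in IVF_1. The 2 PA_1 libraries were the highest and the lowest of all 6, and no comparison was called, with 0.24 (adjusted p = 0.73) in PA_1 against IVF_1 and 0.46 (adjusted p = 0.42) in PA_3 against IVF_1. The direction in PA_1 turned on the library left out. SLC16A3 was -0.54, adjusted p = 0.018 in PA_1 against IVF_1 without PA_1 replicate 1 and 0.68, adjusted p = 0.00046 without PA_1 replicate 2. PA_3 passed against IVF_1 when PA_1 replicate 1 (0.47, adjusted p = 0.0015) or PA_1 replicate 2 (0.47, adjusted p = 0.0026) was left out, and PA_1 was below PA_3 without PA_1 replicate 1 (-1.01, adjusted p = 4.5e-06).

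The pyruvate dehydrogenase kinases, which inactivate the complex that feeds pyruvate to the citric acid cycle, did not move together. PDK1 held 55.7% ± 1.45 (SD, n = 2) of their TPM in PA_1, 63.2% ± 0.0562 in PA_3 and 53.1% ± 0.0947 in IVF_1. PDK1, a kinase known as a HIF-1 target, was at 95.1 and 94.4 CPM in PA_1, with 130.5 and 129 in PA_3 and 68.05 and 70.3 in IVF_1. The libraries of each line lay close together, and the lines stood in the order PA_3, PA_1, IVF_1. PDK1 was 0.91 (SE 0.07, adjusted p = 2e-08) in PA_3 against IVF_1, 0.45 (SE 0.07, adjusted p = 0.00012) in PA_1 against IVF_1 and -0.45 (SE 0.07, adjusted p = 6.1e-05) in PA_1 against PA_3, and each call held under every alternative run.

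PDK2, the kinase found in most tissues, was at 27.7 and 20.3 CPM in PA_1, with 29.8 and 30.99 in PA_3 and 14.3 and 15.6 in IVF_1. It was higher than in IVF_1 in both PA_3, at 1.02 (SE 0.13, adjusted p = 8.5e-06), and PA_1, at 0.70 (SE 0.13, adjusted p = 0.0009), which was 0.44, adjusted p = 0.0047 without PA_1 replicate 1. PDK2 overlaps SAMD14 on the opposite strand, which had 230 to 802 counts and was itself higher in PA_3 than in IVF_1. The PDK2 difference between PA_1 and PA_3, -0.33 (SE 0.12, adjusted p = 0.045), was -0.59, adjusted p = 3e-05 without PA_1 replicate 1. It was lost without PA_1 replicate 2 (-0.12, adjusted p = 0.34), PA_3 replicate 1 (-0.36, adjusted p = 0.11), PA_3 replicate 2 (-0.30, adjusted p = 0.19), IVF_1 replicate 1 (-0.33, adjusted p = 0.067) or IVF_1 replicate 2 (-0.33, adjusted p = 0.067), and with DESeq2 (-0.33, adjusted p = 0.1).

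PDK4, the kinase known to rise in fasting and with fatty acid use, went the other way. It was at 15.5 and 20.2 CPM in PA_1, with 3.65 and 2.78 in PA_3 and 11.7 and 14.8 in IVF_1, and the PA_3 libraries lay far below the other 4. PDK4 was 4.12-fold lower in PA_3 than in IVF_1, a log2 fold change of -2.04 (SE 0.19, adjusted p = 2e-07), and 5.53-fold higher in PA_1 than in PA_3, at 2.47 (SE 0.18, adjusted p = 2e-08). The share of PDK4 in the kinase TPM was 10.7% ± 2.34 (SD, n = 2) in PA_1, 1.74% ± 0.226 in PA_3 and 10.9% ± 1.11 in IVF_1. Its call in PA_1 against IVF_1, 0.42 (SE 0.16, adjusted p = 0.047), was lost without PA_1 replicate 2 (0.25, adjusted p = 0.18), without IVF_1 replicate 1 (0.26, adjusted p = 0.4) and with DESeq2 (0.43, adjusted p = 0.12). PDK3, an X-linked kinase of the same family, was at 31.3 to 34.9 CPM and was not called, with log2 fold changes of -0.11 to 0.02.

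Among the genes of the oxygen response, HIF1A itself, the oxygen-regulated subunit of HIF-1, was not called in any comparison. It was at 398 and 417 CPM in PA_1, with 415 and 389.9 in PA_3 and 398 and 402 in IVF_1. Its log2 fold changes were 0.03 (SE 0.06, adjusted p = 0.77) in PA_1 against IVF_1, 0.01 (SE 0.06, adjusted p = 0.91) in PA_3 against IVF_1 and 0.02 (SE 0.06, adjusted p = 0.85) in PA_1 against PA_3. HIF-1 activity is known to be set mainly through the stability of the protein, which these data do not measure. Of the other 6 genes, 3 were higher and 1 lower in PA_3 than in IVF_1, with a median of 0.42, and in PA_1 against IVF_1 1 was higher and 1 lower, with a median of 0.26. The shares called were 66.7% and 33.3%, against 52.1% and 31.4% of all genes, so in PA_1 the share was near that of all genes.

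VEGFA, the angiogenic growth factor, was at 7.49 and 6.60 CPM in PA_1, with 20.2 and 23.2 in PA_3 and 7.37 and 7.53 in IVF_1. PA_3 stood apart, and PA_1 and IVF_1 overlapped. The log2 fold change was 1.54 (SE 0.13, adjusted p = 7.3e-08) in PA_3 against IVF_1 and -1.61 (SE 0.13, adjusted p = 3.8e-08) in PA_1 against PA_3, while PA_1 against IVF_1 gave -0.07 (adjusted p = 0.76). VEGFA was the member called in PA_3 against both other lines at 2-fold or more whose PA_1 level lay closest to that of IVF_1.

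BNIP3, a receptor for the removal of mitochondria, was at 72.1 and 44.5 CPM in PA_1, with 105 and 137 in PA_3 and 35.96 and 34.6 in IVF_1. The lines did not overlap, but the libraries of PA_1 and of PA_3 were far apart. BNIP3 was 3.43-fold higher in PA_3 than in IVF_1, a log2 fold change of 1.78 (SE 0.29, adjusted p = 0.009), which was 1.79, adjusted p = 0.058 with the replicate number as a block. In PA_1 against IVF_1 it was 0.74 (SE 0.30, adjusted p = 0.15), and without PA_1 replicate 2 it passed (1.04, adjusted p = 0.013). The BNIP3 call in PA_1 against PA_3, -1.04 (SE 0.27, adjusted p = 0.049), was lost without PA_3 replicate 1 (-1.22, adjusted p = 0.059), PA_3 replicate 2 (-0.84, adjusted p = 0.15), IVF_1 replicate 1 (-1.04, adjusted p = 0.058) or IVF_1 replicate 2 (-1.04, adjusted p = 0.068), and with the replicate block (-1.06, adjusted p = 0.16).

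EGLN3, a prolyl hydroxylase that marks the HIF alpha subunits for destruction and is known to be induced by HIF-1, was at 176 and 186 CPM in PA_1, with 204 and 200.1 in PA_3 and 236 and 225 in IVF_1, highest in IVF_1. It was lower in PA_1, at -0.35 (SE 0.07, adjusted p = 0.00064), and in PA_3, at -0.19 (SE 0.06, adjusted p = 0.021), than in IVF_1. The EGLN3 call in PA_1 held without each library. That in PA_3 was lost without PA_3 replicate 1 (-0.20, adjusted p = 0.081), PA_3 replicate 2 (-0.17, adjusted p = 0.13), IVF_1 replicate 1 (-0.16, adjusted p = 0.2) or IVF_1 replicate 2 (-0.23, adjusted p = 0.064). PA_1 was below PA_3 without PA_1 replicate 2 (-0.19, adjusted p = 0.022). In PA_1 against IVF_1 EGLN3 was lower, while PDK1 and LDHA, known HIF-1 targets too, were higher. The part of HIF-1 in these differences was not tested.

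DDIT4, a stress-induced inhibitor of the growth kinase mTORC1, was at 85.5 and 74.8 CPM in PA_1, with 63.005 and 65.1 in PA_3 and 68.5 and 65.6 in IVF_1, highest in PA_1. It was 0.33 (SE 0.08, adjusted p = 0.004) in PA_1 against PA_3, a call that held without each library, and 0.26 (SE 0.08, adjusted p = 0.021) in PA_1 against IVF_1. DDIT4 lies within the span of ASCC1 on the opposite strand, which had 444 to 1121 counts. ASCC1 was itself higher in PA_1 than in IVF_1 (0.48, adjusted p = 0.00084) and was not called in PA_1 against PA_3 (0.02, adjusted p = 0.91). The DDIT4 call against IVF_1 was lost without PA_1 replicate 1 (0.16, adjusted p = 0.13), IVF_1 replicate 1 (0.29, adjusted p = 0.1) or IVF_1 replicate 2 (0.23, adjusted p = 0.18). ANKRD37, a known HIF-1 target, overlaps UFSP2 on the opposite strand, which had 479 to 1073 counts. UFSP2 was itself higher in PA_3 than in IVF_1 (0.38, adjusted p = 0.0024). ANKRD37 was at 4.90 to 7.30 CPM and was called in PA_3 against IVF_1, at 0.50 (SE 0.16, adjusted p = 0.014). That call was lost without PA_3 replicate 1 (0.47, adjusted p = 0.076), IVF_1 replicate 1 (0.46, adjusted p = 0.1) or IVF_1 replicate 2 (0.54, adjusted p = 0.059), and with DESeq2. CA9 was at 7.79 to 11.04 CPM and was not called, with 0.33 (adjusted p = 0.053) in PA_3 against IVF_1, which passed without PA_1 replicate 1 (0.33, adjusted p = 0.023) or PA_1 replicate 2 (0.33, adjusted p = 0.025).

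The glycolytic enzymes also differed between the 2 libraries of a line, and did so together. Measured as the difference in log2(CPM + 1) between replicate 1 and replicate 2, all 16 enzymes were higher in replicate 1 of PA_1, by 0.06 to 0.45 with a median of 0.28. In PA_3 all 16 were lower in replicate 1, with a median of -0.15, and in IVF_1 15 of 16 were higher in replicate 1, with a median of 0.11. The 9498 genes of at least 10 CPM had medians of -0.0032, 0.0033 and 0.0079. Of all 35 members, 48.6% differed by more than 0.25 between the PA_1 libraries, 22.9% between the PA_3 libraries and 8.57% between the IVF_1 libraries, against 16.1%, 3.48% and 2.98% of those genes. Some members are themselves under 10 CPM. Of all 15197 genes tested, whatever their level, 22.9%, 10.7% and 13.3% differed by that much. The members of IVF_1 were below that share.

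Outside the enzymes, the differences between the PA_1 libraries were 1.10 for SLC16A3, 0.84 for PFKFB3, 0.69 for BNIP3 and 0.46 for LDHA, and 0.01 for PDK1. SLC16A1 and PDK4 went the other way, at -0.30 and -0.36. The spread between libraries of 1 line is the error against which the lines were compared, and whether these libraries came from separate cultures is not stated. In the fixed list of citric acid cycle genes, no gene differed by more than 0.25 in any line. These genes still leaned to one side in PA_3 and IVF_1. Replicate 1 was higher for 2 of the 18 in PA_3 (median -0.092), 16 in IVF_1 (median 0.055) and 11 in PA_1 (median 0.025). Between the PA_3 libraries, 33.3% of the other glycolytic and gluconeogenic enzymes and 36.4% of the other transporters differed by more than 0.25. The mitochondrial share of counts was 7.97% in PA_1 replicate 1 and 9.65% in replicate 2, and its part in the difference was not tested.

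**Figure D4:**
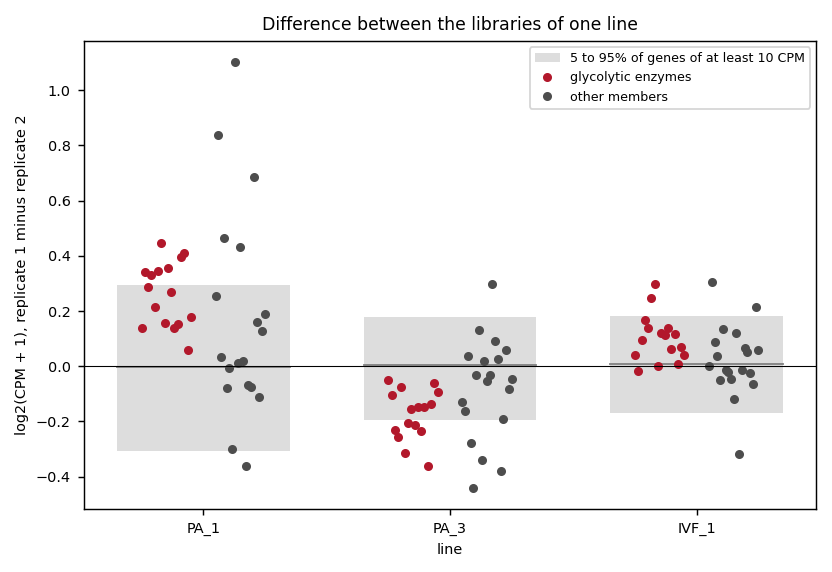
Difference in log2(CPM + 1) between replicate 1 and replicate 2 (vertical axis) in each line (horizontal axis), for the 16 glycolytic enzymes and the other members, with a grey band for the 5th to 95th percentile of genes of at least 10 CPM and a grey line for their median. All enzymes lie above 0 in PA_1 and below 0 in PA_3.

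The genes around the pathway were read from lists of known function. For each list the share called is to be read against 52.1% of all genes in PA_3 against IVF_1, 31.4% in PA_1 against IVF_1 and 36.8% in PA_1 against PA_3. Of 31 other genes known to respond to low oxygen, 16 were higher and 3 lower in PA_3 than in IVF_1, with a median log2 fold change of 0.30, and in PA_1 against IVF_1 11 were higher and 2 lower, with a median of 0.18. The test of PA_1 against PA_3 gave 2 higher and 11 lower. The shares called, 61.3%, 41.9% and 41.9% in the order just given, were near those of all genes, and it was the direction that was uneven. MXI1, an antagonist of MYC, was at 17.7 and 18.8 CPM in PA_1, with 23.1 and 24.3 in PA_3 and 8.40 and 10.4 in IVF_1, and was 1.34 (SE 0.13, adjusted p = 2e-07) in PA_3 and 0.95 (SE 0.13, adjusted p = 2.9e-05) in PA_1 against IVF_1. WSB1, a ubiquitin ligase subunit, was 0.63 (adjusted p = 3.6e-07) and 0.55 (adjusted p = 4.4e-06) in the same comparisons. FAM162A, a mitochondrial protein, was 0.93 (adjusted p = 2.1e-07) and 0.40 (adjusted p = 0.0029), and in PA_1 against PA_3 it was -0.54 (adjusted p = 9.2e-05). AK4, a mitochondrial adenylate kinase, and MIF, a cytokine, were lower in PA_1 than in PA_3, at -0.76 (adjusted p = 7.7e-07) and -0.46 (adjusted p = 0.00017). FLT1, a receptor for VEGFA, was lower in PA_1 and PA_3 than in IVF_1, at -0.93 (adjusted p = 1.8e-05) and -0.67 (adjusted p = 0.00015).

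The oxygen-sensing machinery showed no common direction. Of 15 genes, 4 were higher and 6 lower in PA_3 than in IVF_1, 3 higher and 2 lower in PA_1 than in IVF_1, while PA_1 against PA_3 gave 4 higher and 3 lower, which is 66.7%, 33.3% and 46.7% called. EGLN1, the main HIF prolyl hydroxylase, was at 21.3 and 15.4 CPM in PA_1, with 32.99 and 34.2 in PA_3 and 13.7 and 14.005 in IVF_1, and was 1.28 (SE 0.13, adjusted p = 6.1e-07) in PA_3 against IVF_1, so EGLN1 and EGLN3 moved in opposite directions in PA_3. HIF1AN, the hydroxylase that blocks HIF-1 from its coactivators, was lower in PA_3 than in IVF_1, at -0.72 (adjusted p = 5.7e-07), and higher in PA_1 than in PA_3, at 0.62 (adjusted p = 4.7e-06). HIF3A, a HIF alpha subunit with inhibitory forms, was 0.94 (adjusted p = 1.6e-05) in PA_3 against IVF_1 and 0.46 (adjusted p = 0.015) in PA_1 against IVF_1. ARNT2, a partner of the alpha subunits, was higher in PA_1 than in IVF_1, at 0.36 (adjusted p = 0.0011), and than in PA_3, at 0.53 (adjusted p = 2.2e-05).

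Of 11 genes for pyruvate entry and the pyruvate dehydrogenase complex, 7 were lower and 1 higher in PA_3 than in IVF_1, and 6 lower and 0 higher in PA_1 than in IVF_1. The shares called were 72.7% and 54.5%, and the medians -0.29 and -0.24. DLAT, the acetyltransferase core of the complex, was at 111 and 120.5 CPM in PA_1, with 105 and 104 in PA_3 and 156 and 161 in IVF_1, and was -0.60 (SE 0.07, adjusted p = 2.3e-06) in PA_3 and -0.46 (SE 0.07, adjusted p = 0.0001) in PA_1 against IVF_1. MPC1, a subunit of the mitochondrial pyruvate carrier, was -0.78 (adjusted p = 1.5e-06) and -0.37 (adjusted p = 0.0033), and PC, the pyruvate carboxylase, -0.77 (adjusted p = 2.7e-06) and -0.24 (adjusted p = 0.049). PDPR, a regulator of the phosphatase that reactivates the complex, was -0.44 (adjusted p = 0.00028) in PA_3 against IVF_1. PDHA1, the catalytic subunit that the kinases phosphorylate, was the gene called higher in PA_3. It was at 318 and 333 CPM in PA_1, with 616 and 598 in PA_3 and 397 and 377 in IVF_1. The log2 fold change was 0.65 (SE 0.06, adjusted p = 3.1e-07) in PA_3 and -0.25 (SE 0.06, adjusted p = 0.0067) in PA_1 against IVF_1.

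Of 18 citric acid cycle genes, 8 were lower and 1 higher in PA_3 than in IVF_1, and 8 lower and 0 higher in PA_1 than in IVF_1, with medians of -0.16 and -0.19. The test of PA_1 against PA_3 gave 3 lower and 0 higher. The shares called were 50% in PA_3 and 44.4% in PA_1 against IVF_1 and 16.7% between the PA lines, so in PA_3 the cycle genes were called about as often as all genes, of which 26.2% were lower and 25.9% higher. IDH3A, a subunit of isocitrate dehydrogenase, was at 45.04 and 45.1 CPM in PA_1, with 48.8 and 52.5 in PA_3 and 75.9 and 73.03 in IVF_1, and was -0.56 (SE 0.08, adjusted p = 1.9e-05) in PA_3 and -0.73 (SE 0.08, adjusted p = 3e-06) in PA_1 against IVF_1. OGDH of the oxoglutarate dehydrogenase complex was -0.47 (adjusted p = 3.5e-05) and -0.55 (adjusted p = 2e-05), the malate dehydrogenase MDH2 -0.43 (adjusted p = 0.00015) and -0.54 (adjusted p = 3.8e-05), and SDHD of succinate dehydrogenase -0.52 (adjusted p = 0.00012) and -0.61 (adjusted p = 6.8e-05). The gene called higher in PA_3 was IDH2, the NADP-linked isocitrate dehydrogenase, at 0.22 (adjusted p = 0.025). IDH2, SDHB and SUCLA2 were the 3 lower in PA_1 than in PA_3, at -0.29 (adjusted p = 0.0077), -0.26 (adjusted p = 0.0082) and -0.20 (adjusted p = 0.046).

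**Figure D5:**
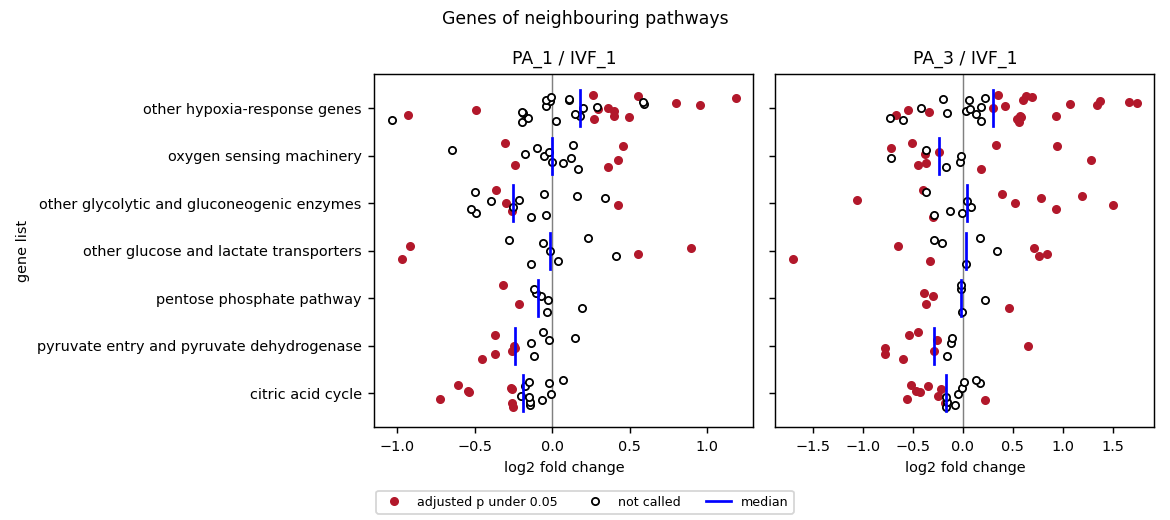
Log2 fold change (horizontal axis) of each gene in 7 lists (vertical axis) in PA_1 and PA_3 against IVF_1, with filled points for an adjusted p under 0.05 and a blue bar at the median of the list. The medians of the lists for pyruvate entry (-0.24 and -0.29) and the citric acid cycle (-0.19 and -0.16) lie below 0 in both panels and that of the other hypoxia-response genes above it (0.18 and 0.30).

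Of 15 other glycolytic and gluconeogenic enzymes, 6 were higher and 3 lower in PA_3 than in IVF_1, 1 higher and 3 lower in PA_1 than in IVF_1, while PA_1 against PA_3 gave 1 higher and 7 lower, or 60%, 26.7% and 53.3% called. PGM1, which links glycogen to glycolysis, was at 49.9 and 47.3 CPM in PA_1, with 99.6 and 100.03 in PA_3 and 45.5 and 41.6 in IVF_1, and was 1.20 (SE 0.08, adjusted p = 3.2e-09) in PA_3 against IVF_1. LDHD, which oxidises the D form of lactate, was 1.498 (adjusted p = 2.2e-08) in PA_3 and 0.42 (adjusted p = 0.014) in PA_1 against IVF_1. PCK2, the mitochondrial enzyme of gluconeogenesis, was -0.82 (adjusted p = 1.2e-05) in PA_1 against PA_3. Lower in PA_3 than in IVF_1 were PFKFB2, of the family of PFKFB3, at -1.05 (adjusted p = 1e-05), and TIGAR, a phosphatase that opposes phosphofructokinase activity, at -0.40 (adjusted p = 0.0085), which was -0.36 (adjusted p = 0.024) in PA_1 against IVF_1. G6PC3, a glucose 6-phosphatase, was -0.26 (adjusted p = 0.029) in PA_1 against IVF_1.

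Of 8 pentose phosphate genes, 1 was higher and 3 lower in PA_3 than in IVF_1, 0 higher and 2 lower in PA_1 than in IVF_1, while PA_1 against PA_3 gave 1 higher and 2 lower, or 50%, 25% and 37.5% called. TKT, the transketolase, was -0.32 (adjusted p = 0.0022) in PA_1 against IVF_1 and -0.30 (adjusted p = 0.0025) in PA_1 against PA_3. PGD, which makes NADPH, was -0.37 (adjusted p = 0.00022) and -0.21 (adjusted p = 0.02) in PA_3 and PA_1 against IVF_1, and H6PD, its counterpart in the endoplasmic reticulum, 0.47 (adjusted p = 0.0034) in PA_3. RPE, an epimerase of the pathway, was -0.29 (adjusted p = 0.0067) in PA_3 against IVF_1, and PGLS, a lactonase, -0.25 (adjusted p = 0.05) in PA_1 against PA_3.

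Of 11 other transporters of sugars and lactate, 3 were higher and 3 lower in PA_3 than in IVF_1, 2 higher and 2 lower in PA_1 than in IVF_1, while PA_1 against PA_3 gave 2 higher and 2 lower, or 54.5%, 36.4% and 36.4% called. SLC2A5, a fructose transporter, was at 44.7 and 49.6 CPM in PA_1, with 50.6 and 62.6 in PA_3 and 91.9 and 85.6 in IVF_1, and was -0.65 (SE 0.10, adjusted p = 3.4e-05) in PA_3 and -0.92 (SE 0.10, adjusted p = 2.5e-06) in PA_1 against IVF_1. SLC16A7, a relative of SLC16A1 with high affinity for pyruvate, was -1.70 (adjusted p = 5.8e-06) and -0.97 (adjusted p = 0.0015). SLC2A12 and the insulin-responsive transporter SLC2A4 were higher in PA_3, at 0.84 (adjusted p = 1.7e-05) and 0.72 (adjusted p = 0.004), and in PA_1, at 0.56 (adjusted p = 0.002) and 0.90 (adjusted p = 0.0014). EMB, a partner protein of the monocarboxylate transporters, was -0.33 (adjusted p = 0.0079) in PA_3 against IVF_1 and 0.36 (adjusted p = 0.0053) in PA_1 against PA_3.

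Of 19 upstream factors, 5 were higher and 8 lower in PA_3 than in IVF_1, 5 higher and 6 lower in PA_1 than in IVF_1, while PA_1 against PA_3 gave 6 higher and 6 lower, or 68.4%, 57.9% and 63.2% called. TXNIP, an arrestin that restrains glucose uptake and is known to follow glucose supply, was at 116 and 118 CPM in PA_1, with 77.9 and 86.4 in PA_3 and 54.3 and 53.1 in IVF_1. It was 1.13 (SE 0.08, adjusted p = 1.4e-08) in PA_1 and 0.61 (SE 0.08, adjusted p = 6e-06) in PA_3 against IVF_1. ARRDC4, a related arrestin, was 0.56 (adjusted p = 2.8e-05) and 0.55 (adjusted p = 1.3e-05). MYCN, a MYC family factor, was lower in both lines, at -1.04 (adjusted p = 4.5e-08) and -0.41 (adjusted p = 0.00026). LIN28B, an RNA-binding protein of growing and pluripotent cells, was at 76.2 and 79.96 CPM in PA_1, with 37.1 and 34.8 in PA_3 and 76.5 and 78.2 in IVF_1, and was -1.11 (SE 0.08, adjusted p = 7.5e-09) in PA_3 against IVF_1 and 1.12 (SE 0.08, adjusted p = 8.9e-09) in PA_1 against PA_3. SP1, a general activator, was -0.96 (adjusted p = 6.5e-08) in PA_3 against IVF_1.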

How the data were processed

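Raw gene-level counts for 6 libraries were deposited, made from 151-base paired reads of stranded poly(A) libraries per the labels' protocols. The authors' RPKM, relative to gene length and depth, and the authors' TPM stand beside them in the deposited table. Trimming used cutadapt 2.8 and alignment STAR 2.7.1a to Sscrofa11.1, per the submitters' processing notes. For the gene counter, the annotation and the strand, the settings were not given in the sources used here. A further 54 columns of per-sample values were not used.

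Members were matched by symbol for 30 genes and by NCBI gene name for 5. Counts were tested with edgeR 4.0.16 (limma 3.58.1, R 4.3.3) by glmQLFit with robust estimation and glmQLFTest, two-sided, with filterByExpr by line, TMM scaling and 1 coefficient per line over all 6 libraries. This kept 15197 of 31908 genes, with 3 residual degrees of freedom and a biological coefficient of variation of 6.1%. P-values were adjusted by Benjamini-Hochberg over these genes, with a threshold of 0.05. CPM are TMM-scaled, and TPM served for shares of isozymes, given as mean ± SD of 2 libraries. The fit was tested on simulated data.

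Alternatives were library totals without TMM, RLE factors, mitochondrial genes left out, no filter, DESeq2 1.42.0, only the lines compared, the replicate number as a block, each library left out in turn and RPKM shares. A leave-one-out fit assumes that the lone library varies like the other lines. Added after seeing the data were the summed ALDOA and LDHB models and a crossed block. The members and lists were chosen with earlier results of these data known. Library values are given for members called at 2-fold or more, the leading isozyme of each step and HIF1A, and, added later, for other members described at length. From each list, up to 3 called genes with the smallest adjusted p per comparison are named, except for 1 gene that is not reported here. A planned motif search in promoters was not run, since no promoter sequences were used here.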

Additional observations from a re-analysis of the deposited data

How the results depend on the processing

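Depth did not keep any member from being tested, but 2 libraries per line and 3 residual degrees of freedom limit every call, and the cause of the changes given here was not tested. Leaving out a library in turn gave 8 to 19 members called in PA_1 against IVF_1 (13 with all libraries), 16 to 25 in PA_3 against IVF_1 (21) and 13 to 24 in PA_1 against PA_3 (20). Over all genes it gave 2307 to 5812 calls (4766), 5530 to 9153 (7920) and 3406 to 6496 (5595). Without IVF_1 replicate 1 or 2, PA_1 against IVF_1 kept 8 calls each and 2307 or 2745 of all genes, and without PA_3 replicate 2, PA_1 against PA_3 had 13 and 3406. DESeq2 called 12, 20 and 18 members and the fit without TMM 13, 20 and 18. Isozyme shares cannot differ between RPKM and TPM, and with 2 libraries leaving one out always moves a mean by less than 1 SD, so neither bears on their stability. No called member changed direction under an alternative.

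Replicate numbers are shared by the lines, but the labels do not say that they pair libraries. The correlations of the differences between replicate 1 and replicate 2 over 15197 genes were -0.136 for PA_1 and PA_3, 0.0857 for PA_1 and IVF_1 and -0.0800 for PA_3 and IVF_1. With the replicate number as a block, 14, 21 and 20 members and 4677, 7798 and 5461 genes were called. A crossed block for PA_1 against PA_3, added after seeing the data, called 23 members and 6573 genes.

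Direction turned for members with no call when a library was left out, and these log2 fold changes ranged as follows. In PA_1 against IVF_1 SLC2A3 -0.21 to 0.0617, HK1 -0.15 to 0.00108, HK2 -0.34 to 0.0232, GPI -0.0569 to 0.25, PFKP -0.24 to 0.13, PFKFB3 -0.89 to 0.0631, TPI1 -0.25 to 0.12, GAPDH -0.0397 to 0.24, PKM -0.00107 to 0.19, SLC16A3 -0.54 to 0.68 and VEGFA -0.17 to 0.0212. In PA_3 against IVF_1 HK2 -0.000891 to 0.11, PFKL -0.21 to 0.0441, PFKP -0.18 to 0.15, PDK3 -0.0444 to 0.0823 and HIF1A -0.0339 to 0.0569. In PA_1 against PA_3 PFKL -0.28 to 0.0671, PFKM -0.16 to 0.0664, PFKP -0.24 to 0.13, PFKFB3 -0.32 to 0.64, GAPDH -0.14 to 0.14, SLC16A3 -1.01 to 0.21, HIF1A -0.0285 to 0.0623 and CA9 -0.15 to 0.00304. Other alternatives turned 6 values near 0. PFKP in PA_3 against IVF_1 0.00924 with no filter, 0.00262 with the replicate block. PDK3 in PA_3 against IVF_1 -0.00927 without TMM. HIF1A in PA_3 against IVF_1 -0.0177 without TMM. PFKM in PA_1 against PA_3 0.012 without TMM. PFKP in PA_1 against PA_3 0.0231 without TMM. GAPDH in PA_1 against PA_3 0.0577 without TMM, 0.00297 with RLE, 0.00354 without mitochondrial genes, 0.00294 with DESeq2, 0.00052 with only these lines fitted.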
